A study of Homo sapiens with 12 samples.

Results

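The 12 arrays of this series fall into a pair of sets that the treatments do not define. The submitters' description label ends in the letter R on 6 arrays and lacks it on the other 6. The R arrays are replicates 3 and 4 of each treatment, and the unmarked arrays are replicates 1 and 2, so each set holds 2 arrays of each of the 3 treatments. All 12 arrays measured total RNA from INA-6, a human myeloma cell line that depends on interleukin-6 and was grown with it in medium containing fetal calf serum. The cells received DMSO (the solvent control, labelled without inhibition), SB590885 (a Raf inhibitor) or PD325901 (a MEK inhibitor). Amplified, biotin-labelled RNA was hybridised to Affymetrix HG-U133 Plus 2.0 arrays. The meaning of the R, the doses, the treatment times, the culture behind each array and the hybridisation day are not stated in the labels. The series' design text calls the 4 arrays of a treatment biological replicates, and nothing in it says whether the numbers stand for separate cultures, so p-values measure the spread between arrays. Because all arrays come from 1 cell line, the comparison says nothing about other myeloma cells.

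Raf phosphorylates MEK and MEK phosphorylates ERK, and ERK in turn switches on its own inhibitors, the DUSP phosphatases and the Sprouty and SPRED proteins. Interleukin-6 signals in myeloma cells through the JAK kinases and STAT3, with SOCS3 as a feedback inhibitor. Plasma cells and the myeloma cells derived from them make and export large amounts of protein, which places a load on the endoplasmic reticulum and on the COPII coat, the protein shell that buds cargo vesicles from it. The cell line label was checked first against 10 plasma cell markers. All 10 read high on every array, from 13.59 to 14.21 for JCHAIN (the joining chain of secreted antibody) down to 8.72 to 11.01 for CD38, on the deposited log2 scale on which the median array value was 6.88 to 6.97. Levels of different genes come from different probes and are not compared with each other.

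The R arrays and the unmarked arrays differed at 25187 of 54613 probe sets, 46.1% of those tested (limma with treatment as a term, adjusted p under 0.05). Of these, 11318 (20.7% of all) were higher in R arrays and 13869 (25.4%) were lower. A called difference was the same way round in DMSO, SB590885 and PD325901 for 24713 probe sets. The call rests on the mean of these 3 differences, so much of that sameness follows from it. A stricter reading asks that both R arrays lie above, or both below, both unmarked arrays in each treatment. That held for 16945 called probe sets (31.0%), 6858 higher (12.6%) and 10087 lower (18.5%). Taken per gene, with the brightest probe set standing for each of 19775 genes, 54.8% were called: 4520 genes (22.9%) were higher and 6310 (31.9%) lower. Of these, 2810 (14.2%) and 4799 (24.3%) separated the sets in all 3 treatments.

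Most of these differences were small. A difference of at least 1 on the log2 scale was found for 4 called probe sets (0.00732%) higher in R arrays and for 34 (0.0623%) lower. Summed over probe sets, the R mark held 44.8% of the variance among the 12 arrays, the treatment 27.5%, their interaction 7.15% and the remainder 20.5%. Within DMSO arrays alone 8944 probe sets (16.4%) passed, within SB590885 arrays 11856 (21.7%) and within PD325901 arrays 15789 (28.9%). Across probe sets the differences seen in DMSO correlated at 0.88 with those in PD325901 and at 0.76 with those in SB590885, and those of the inhibitors at 0.75 with each other. These correlations describe these arrays. The 3 treatments share no array, and probe sets are not independent replicates. Where a gene had a further probe set and both passed, 5989 of 7121 (84.1%) differed in the same direction.

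The direction of a difference went with the level of the gene. Probe sets were divided by mean level into 10 equal groups. In the brightest, with means from 9.72 to 14.84, 77.5% were lower in R arrays and 1.10% higher, and the median difference was -0.275. In the sixth of these 10 equal groups, around the array median, 39.7% were higher and 12.8% lower, with a median of 0.072. The spread of values over an array was narrower in R arrays. The SD over probe sets was 1.54 ± 0.011 (SD, n = 6) in unmarked arrays, where it ran from 1.52 to 1.55 with a median of 1.54. It was 1.43 ± 0.026 (SD, n = 6) in R arrays, from 1.38 to 1.45 with a median of 1.43. The sets did not overlap, and the exact two-sided permutation p, with labels permuted within treatment, was 0.00926, the smallest these can give (adjusted p = 0.017 over 11 array-level values). If whole replicate numbers are exchanged there are 6 arrangements, and the smallest possible p is 0.333. Quantile normalisation, which gives all 12 arrays one distribution, brought the median difference of every group to between 0.002 and 0.024. It left 17777 probe sets (32.6%) called, 9384 higher (17.2%) and 8393 lower (15.4%). Of the deposited calls, 5662 higher (10.4% of all) and 6954 lower (12.7%) were called the same way on that scale, and 718 (1.31%) were called the opposite way. With arrays centred on their medians 4546 were higher and 17790 lower, and with scaling to one SD as well 6661 and 15425. Both scales are therefore given below, and a group of genes is described on each. A value marked quantile is the difference after quantile normalisation.

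**Figure D1:**
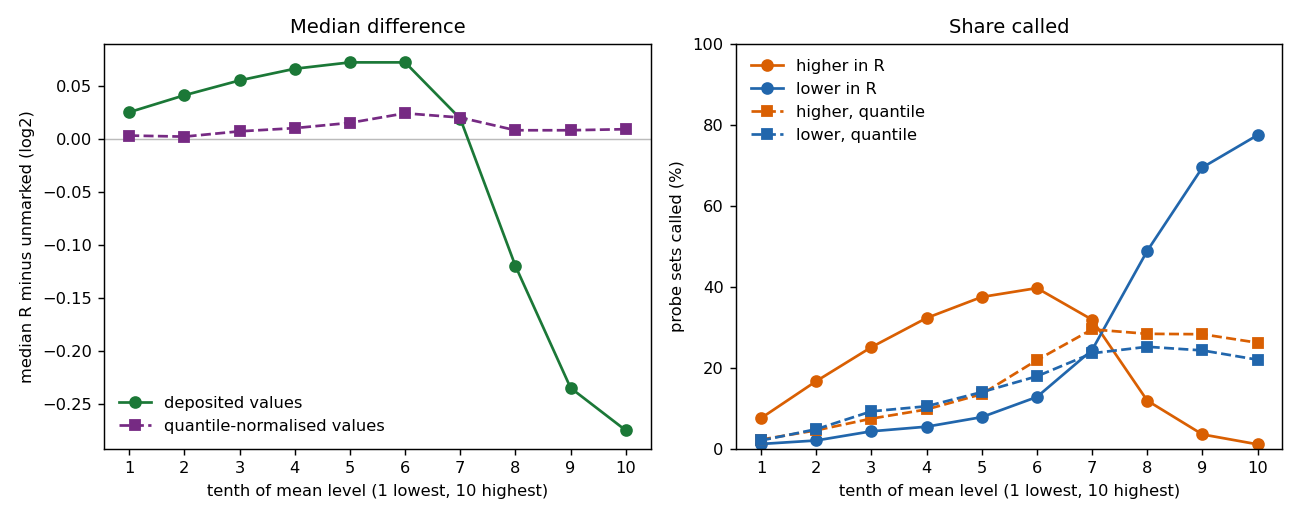
R minus unmarked arrays for 10 equal groups of probe sets by mean level over the 12 arrays; the left panel plots the median log2 difference and the right panel the percentage of probe sets called, for deposited values (circles, solid lines) and quantile-normalised values (squares, dashed lines). In deposited values the share lower in R climbs to 77.5% in the brightest group, while after quantile normalisation the median difference stays between 0.002 and 0.024.

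The spike-in controls, which are added during sample preparation and hybridisation and do not come from the cells, also differed between the sets. BioB, the bacterial control that Affymetrix spikes in at the lowest amount of its hybridisation mix, averaged 7.27 over its 6 probe sets on the unmarked arrays, with a range of 7.24 to 7.30. On R arrays it averaged 9.48, with a lowest value of 9.09, a median of 9.51 and a highest of 9.69, so every R array lay above every unmarked one. BioC differed by 0.30, BioD by -0.26 and Cre, the brightest, by -0.13. The mean over these hybridisation controls was 0.72 higher in R arrays (exact permutation p = 0.00926, adjusted p = 0.017). The poly-A controls, which are added to the RNA before amplification, were lower in R arrays by 0.34 on average (exact permutation p = 0.00926, adjusted p = 0.017). Among them Dap differed by -0.58, Lys by -0.40, Phe by -0.18 and Thr by -0.18. Over the 12 arrays BioB and Lys did not overlap between the sets, while BioC, BioD, Cre, Dap, Phe and Thr did. The poly-A mean overlapped as well, at 8.10 to 8.40 in unmarked and 7.67 to 8.17 in R arrays. The 3′ signal minus the 5′ signal of ACTB (beta-actin), a measure of how far labelled copies reach, was 1.75 ± 0.07 (SD, n = 6) in unmarked and 1.5 ± 0.058 (SD, n = 6) in R arrays (exact permutation p = 0.00926, adjusted p = 0.017). The same measure for GAPDH was 0.418 ± 0.04 (SD, n = 6) and 0.406 ± 0.062 (SD, n = 6) (exact permutation p = 0.704). These values move with the R mark beside every gene result that follows, and their part in those results was not tested.

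The largest increase in R arrays was at RNA45SN5, a 45S precursor from which 18S, 5.8S and 28S ribosomal RNAs are cut. The unmarked DMSO arrays read 8.30 and 8.04, the unmarked SB590885 arrays 8.23 and 8.81, and the unmarked PD325901 arrays 8.31 and 8.07. The R arrays read 9.46 and 9.49, 10.77 and 10.47, and 9.36 and 9.32 in the same order. Every R array was above every unmarked one, by 1.52 ± 0.14 (SE) on average (adjusted p = 9.26e-07). The other probe set of RNA45SN5 differed by 1.43, and the 28S ribosomal RNA control probe sets by 0.30 (exact permutation p = 0.00926, adjusted p = 0.017). The 28S sets overlapped over all arrays, and the 3′ probe set of 28S differed by -0.02 while its others differed by 0.46 and 0.47. The 18S control differed by -0.20, also with overlapping sets (exact permutation p = 0.12). Ribosomal RNA mostly lacks the poly-A tails on which this kind of amplification is primed.

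TMEFF2, a transmembrane protein with follistatin-like domains, was next. It ran from 6.53 through a median of 7.06 to 7.38 in unmarked arrays and from 8.03 through 8.23 to 8.49 in R arrays, a difference of 1.20 ± 0.10 (SE, adjusted p = 3.34e-07). The other probe sets of TMEFF2 differed by -0.02 and 0.04, so this difference belongs to 1 of its 3 probe sets. RPL27A, a large-subunit ribosomal protein, ran from 8.29 through 8.73 to 8.88 in unmarked arrays and from 9.44 through 9.55 to 9.63 in R arrays (difference 0.86 ± 0.08 SE, adjusted p = 1.26e-06). DUSP8, a phosphatase of the stress kinases JNK and p38, differed by 0.70 at one probe set and by 0.05 at the other. H3-3A, which encodes the replication-independent histone H3.3, differed by 0.61 (unmarked 7.52 to 7.82, R 8.16 to 8.39). These 5 genes did not overlap between the sets, which follows closely from the rule that picked them.

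The other 10 of the 15 largest increases lay between 0.47 and 0.56. They include genes that are typical of other tissues. YBX2, a germ-cell RNA-binding protein, differed by 0.56. TMPRSS6, the liver protease that limits hepcidin, differed by 0.53. CDX1, an intestinal homeobox factor, differed by 0.47 and SPRR4, a protein of the cornified envelope of skin, by 0.50. B3GNT4, a glycosyltransferase, FIZ1, a zinc-finger partner of FLT3, P3H2, a collagen prolyl hydroxylase, and PTGR1, a prostaglandin reductase, showed differences of 0.54, 0.48, 0.47 and 0.48. RPLP2, an acidic stalk protein of the ribosome, averaged 7.23 in unmarked and 7.75 in R arrays, not far above the array median. The other probe set of RPLP2 differed by 0.07. STX17-DT, a noncoding transcript divergent to STX17, differed by 0.50 at its brighter probe set and by 0.00 at the other. No set overlap was seen for these 10 genes. That adds no support, since all 15 were picked as called genes that separated the sets within each treatment. All 15 stayed higher after quantile normalisation, by 0.44 to 1.75.

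Among the largest decreases was MALAT1, an abundant nuclear noncoding RNA. MALAT1 ran from 12.86 through a median of 13.06 to 13.24 in unmarked arrays and from 11.66 through 12.05 to 12.21 in R arrays. It was lower by 1.04 on average (difference -1.04 ± 0.07 SE, adjusted p = 1.55e-07). Its 12 probe sets did not move as one: 6 were lower, with differences from -0.57 to -1.22, and 5 did not pass, while another was higher by 0.26. NAA15, the anchor subunit of the N-terminal acetyltransferase NatA, ran from 10.13 to 10.79 in unmarked and from 8.98 to 9.65 in R arrays (difference -1.11 ± 0.07 SE, adjusted p = 7.52e-08), and its other 5 probe sets differed by -0.36 to 0.09. EP300, a histone acetyltransferase and coactivator, ran from 9.16 to 9.64 and from 8.23 to 8.57 (difference -0.94 ± 0.05 SE, adjusted p = 6.88e-08), with -0.42 at its other probe set. FAM111B, a protease-related protein of replicating cells, differed by -1.31 and -0.91 at its 2 probe sets. CLK1, a kinase that phosphorylates SR splicing factors, was at 9.62 to 10.34 in unmarked and 8.68 to 9.13 in R arrays (difference -0.95).

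Other large decreases included NFKBIA and NFKBIZ. NFKBIA and NFKBIZ encode IκBα and IκBζ, inhibitor and regulator of NF-κB, and both are themselves induced by it. NFKBIA read 9.35 and 10.27 on unmarked DMSO arrays, 11.51 and 11.17 on SB590885 and 9.21 and 10.13 on PD325901. On R arrays it read 9.26 and 9.02, 10.06 and 9.69, and 8.75 and 8.74. Within each treatment both R arrays lay below both unmarked arrays, although the 6 R and 6 unmarked values overlap because SB590885 arrays were the highest of each set (difference -1.02 ± 0.18 SE, adjusted p = 0.000291). NFKBIZ differed by -1.09 and -0.76 at its 2 probe sets. Like DHRS2 and PMAIP1, it separated the sets within each treatment but not over all arrays. On unmarked arrays NFKBIZ read 8.07 and 8.97 with DMSO and 8.27 and 8.84 with PD325901, replicate 2 second. The R arrays read 7.83 and 7.65, and 7.71 and 7.77. For NFKBIA and NFKBIZ the size of the difference in DMSO and PD325901 therefore leans on replicate 2. PMAIP1, the BH3-only death protein NOXA, differed by -0.96 and -0.88. Its replicate 2 also read above replicate 1, at 9.06 beside 8.46 with DMSO and 8.75 beside 8.11 with PD325901. DHRS2, a mitochondrial and nuclear reductase, differed by -1.01, and its other probe set was lower too. PHLDA2, a PH-domain protein, differed by -0.94 at 1 probe set and by 0.00 at the other 2. SEC24D, a cargo-binding subunit of the COPII coat, ran from 9.54 through 9.76 to 10.49 and from 8.45 through 8.85 to 9.35, with no overlap (difference -0.93). SOCS3, which is not among the 15 largest decreases and is named from the interleukin-6 list, was at 8.87 to 9.41 in unmarked and 7.91 to 8.46 in R arrays (difference -0.84 ± 0.07 SE, adjusted p = 7.27e-07). Each gene of these 2 paragraphs stayed lower after quantile normalisation, with differences from -0.62 to -1.13.

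**Figure D2:**
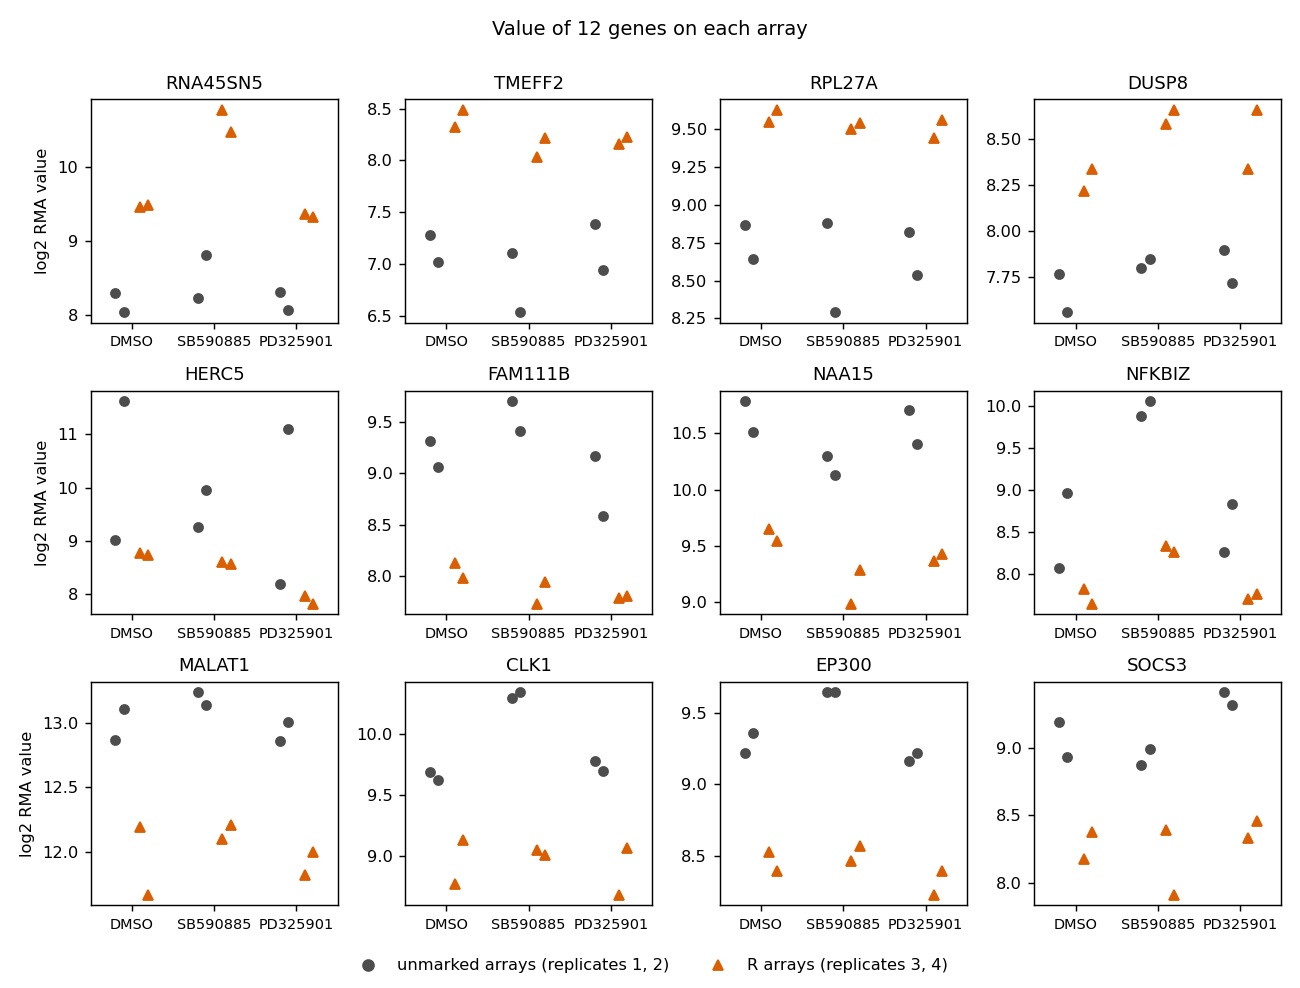
Deposited log2 value of 12 genes on each array, by treatment; circles are the 6 unmarked arrays (replicates 1 and 2) and triangles the 6 R arrays (replicates 3 and 4), and each panel has its own axis. In every panel and treatment both triangles lie on one side of both circles, above them for the first 4 genes and below them for the other 8. The rule that picked all of these genes but SOCS3 required this.

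The remaining 4 of the 15 largest decreases, HERC5, IFIH1, SHFL and PLSCR1, are genes induced by interferon, and their differences were largest on 2 arrays. HERC5, which attaches the ubiquitin-like ISG15 to proteins, read 9.01 and 11.63 on unmarked DMSO arrays, 9.25 and 9.96 on SB590885 and 8.19 and 11.11 on PD325901, with replicate 2 second in each pair. The R arrays read 8.76 and 8.73, 8.59 and 8.55, and 7.95 and 7.81. Replicate 2 of DMSO and of PD325901 stood far above all others. Over 38 measured interferon genes the median level was 11.22 on the DMSO array and 10.98 on the PD325901 array of that number, 8.44 on the SB590885 array, and 7.37 to 7.86 on the other 9 arrays. With all arrays 8 of the 38 genes were lower in R arrays and 0 higher, with a median difference of -0.93. Of all probe sets 25.4% were lower and 20.7% higher, so the share of the list called lower was not above the general one. Without replicate 2 the list turned: 10 were higher (background 11.9%) and 3 lower (21.8%), with a median of 0.08. Without replicate 1, when replicate 2 stood for the unmarked set, 37 of 38 were lower (background 22.6%), with a median of -1.84. Without replicate 3 or replicate 4, 0 of the 38 were called, at medians of -0.86 and -0.96. After quantile normalisation IFIH1, SHFL and PLSCR1 no longer passed (adjusted p = 0.0896, 0.0724 and 0.139). Without replicate 2 the differences were -0.42 for HERC5, -0.27 for PLSCR1, -0.25 for SHFL and -0.17 for IFIH1. The rule that picked these 4 genes put replicate 1 above both R arrays in each treatment, so their direction follows from it and adds no support.

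Because the share of genes that were lower depended on level, the shares at the levels of most lists are given first. Of genes at or above 9, 77.2% were lower and 1.32% higher (median -0.27), and after quantile normalisation 21.9% lower and 27.8% higher (median 0.01). Of genes from 7.5 to 9, 48.3% were lower and 13.4% higher (median -0.12), and after quantile normalisation 20.4% lower and 33.0% higher (median 0.04).

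Among groups of genes with a shared function, KRAB zinc-finger genes were lower on both scales. These genes encode DNA-binding repressors that recruit the corepressor TRIM28, often to transposable elements, and they form a large family of similar sequences, so probes can be shared between members. Of 37 measured, 31 were lower in R arrays and 1 was higher (ZNF91, by 0.18), beside 31.9% lower and 22.9% higher of all genes. The median difference was -0.30 beside 0.01 for all genes. After quantile normalisation 28 were lower and 1 higher, beside 13.2% and 23.4% of all genes, with a median of -0.20 beside 0.03. Within DMSO, SB590885 and PD325901 the list median was -0.27, -0.29 and -0.39. ZNF92 ran from 10.29 through 10.34 to 10.50 in unmarked and from 9.62 through 9.71 to 9.85 in R arrays (difference -0.63 ± 0.04 SE, adjusted p = 8.60e-08). ZNF195 ran from 8.96 through 9.06 to 9.26 and from 8.52 through 8.59 to 8.76 (difference -0.48). ZNF431 and ZNF184 differed by -0.53 and -0.44. These 4 were picked by smallest p, and none overlapped between the sets. The members not lower, ZNF10, ZNF91, ZNF140, ZNF141, ZNF208 and ZNF221, all had means of 7.22 or less in either set. Other members with means under 7.22 in each set were lower, so a low level did not set these apart.

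A count over every gene whose symbol begins with ZNF, made after these values were seen, gave a larger share lower than among other genes at each level. After quantile normalisation 151 of 502 were lower (30.1%) and 82 higher, beside 12.7% lower among other genes. For genes at or above 9 the share lower was 42.9% of 56 against 21.7% of other genes, from 7.5 to 9 it was 35.7% of 171 against 19.7%, and under 7.5 it was 24.0% of 275 against 5.84%. In deposited values 39.4% of the 502 were lower against 31.7% of other genes.

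**Figure D3:**
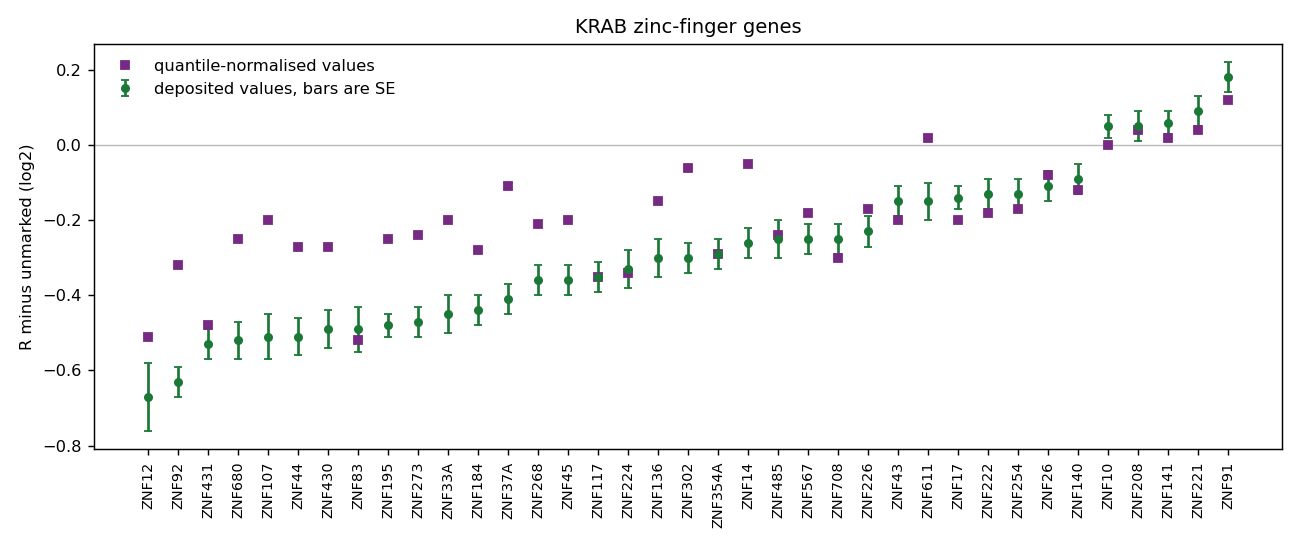
R minus unmarked arrays (log2) for the 37 measured KRAB zinc-finger genes, ordered by the deposited difference; circles with SE bars are deposited values from limma and squares are quantile-normalised values. Most circles and squares lie below 0, with ZNF91 (0.18) the one called gene above it.

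Genes of transcription and splicing were mostly lower in deposited values, at shares near the 77.2% of all genes at or above 9. Of 24 genes of the transcription machinery, 20 were lower and 0 higher, with a median of -0.30; after quantile normalisation 9 were lower and 5 higher, with a median of -0.02. Of 6 Mediator subunits, which link activators to RNA polymerase II, 5 were lower on both scales, and MED12 did not pass on either (0.02, quantile 0.09). MED4 ran from 10.27 to 10.48 in unmarked and from 9.51 to 9.87 in R arrays (difference -0.66 ± 0.04 SE, adjusted p = 8.81e-08, quantile -0.36). MED21 differed by -0.52 (quantile -0.27) and MED14 by -0.45 (quantile -0.20). CCNT2, a cyclin of the elongation kinase P-TEFb, differed by -0.57 (quantile -0.32). Of 33 splicing genes, 26 were lower and 0 higher with a median of -0.23, and after quantile normalisation 9 were lower and 8 higher with a median of -0.01. The SR proteins SRSF11 and SRSF10 and the related LUC7L3, which help choose splice sites, differed by -0.56, -0.44 and -0.45, and by -0.29, -0.14 and -0.17 after quantile normalisation. SRSF11 ran from 12.65 to 12.79 in unmarked and from 11.92 to 12.31 in R arrays, with no overlap.

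Noncoding RNAs of the nucleus went both ways. Of 11 measured, 6 were lower and 1 higher, with a median of -0.16, and after quantile normalisation 3 were lower and 3 higher, with a median of 0.08. Beside MALAT1, CRNDE was lower by 0.59 (difference -0.59, quantile -0.29) and TUG1 by 0.42 (difference -0.42, quantile -0.12). GAS5, the host transcript of many small nucleolar RNAs, was higher by 0.26 (quantile 0.33), at 7.41 to 7.64 in unmarked and 7.62 to 7.85 in R arrays.

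Of 23 secretory pathway genes, 20 were lower in R arrays and 0 higher, with a median of -0.37, beside 77.2% lower and a median of -0.27 for genes at or above 9. After quantile normalisation 12 were lower and 2 higher, with a median of -0.10, beside 21.9% lower and a median of 0.01. Within DMSO, SB590885 and PD325901 the list median was -0.30, -0.36 and -0.46. COPII coat genes led it. SEC23A ran from 10.75 through 10.87 to 11.23 in unmarked and from 10.02 through 10.20 to 10.53 in R arrays (difference -0.72 ± 0.05 SE, adjusted p = 1.25e-07, quantile -0.41). SEC31A, of the outer coat, differed by -0.53, SEC24A by -0.51 and SEC23B by -0.50, and by -0.22, -0.20 and -0.18 after quantile normalisation.

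The unfolded protein response list, chaperones and translocation factors that the endoplasmic reticulum calls on, had 22 of 27 lower and 0 higher, with a median of -0.26, close to the share and median of genes at or above 9. After quantile normalisation 7 were lower and 4 higher, with a median of -0.02. HSP90B1, the endoplasmic reticulum HSP90, ran from 11.50 to 12.25 in unmarked and from 10.73 to 11.47 in R arrays (difference -0.70, quantile -0.39). SSR1, of the translocon-associated complex, and SRP19, of the signal recognition particle, each differed by -0.49 (quantile -0.25 and -0.22), and DNAJC3, an inhibitor of the kinase PERK, by -0.51 (quantile -0.20). In the ATF4 amino acid response list 16 of 29 were lower and 2 higher (median -0.23), and 7 lower and 6 higher after quantile normalisation (median -0.01). The median level of that list was 8.83, and of genes from 7.5 to 9, 48.3% were lower, and 20.4% after quantile normalisation. CTH, which makes cysteine, showed the R difference on top of a treatment difference. It read 9.52 and 9.59 on unmarked DMSO arrays and 11.14 and 11.12 on unmarked SB590885 arrays. On R arrays it read 8.76 and 8.69 with DMSO and 10.23 and 9.77 with SB590885 (R minus unmarked -0.91 ± 0.08 SE, adjusted p = 7.21e-07). The serine synthesis enzyme PSAT1 differed by -0.63, and the transcription factors CEBPG and CEBPB by -0.70 and -0.58.

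Immediate early genes, which are transcribed within minutes of a stimulus and whose transcripts are short-lived, numbered 30. Of these 18 were lower and 2 higher, with a median of -0.30, beside 48.3% lower of genes from 7.5 to 9. After quantile normalisation 9 were lower and 2 higher, with a median of -0.12, beside 20.4% lower, and 19 did not pass. KLF10 ran from 10.62 through 10.67 to 10.75 in unmarked and from 9.70 through 9.88 to 10.06 in R arrays (difference -0.79 ± 0.05 SE, adjusted p = 1.21e-07, quantile -0.48). ZFP36 and ZFP36L1, proteins that bring about decay of AU-rich messages, differed by -0.57 and -0.78 (quantile -0.26 and -0.63), and IER5 by -0.55 (quantile -0.31). None of these 4, picked by smallest p, overlapped. In the interleukin-6 and STAT3 list 14 of 21 were lower and 2 higher (median -0.29), and 5 lower and 2 higher after quantile normalisation (median -0.06). STAT3 itself differed by -0.48 (quantile -0.17), and JAK1 by -0.43 (quantile -0.12, adjusted p = 0.0535 there). NF-κB targets did not share one direction. Of 27, 8 were lower and 5 higher with a median of -0.02, and after quantile normalisation 5 were lower and 6 higher with a median of 0.03. MAP3K8, a kinase upstream of MEK and ERK, was lower by 0.56 (difference -0.56, quantile -0.55), and RELA, the p65 subunit, by 0.27 (difference -0.27, quantile -0.05). In the heat shock list 10 of 16 were lower and 1 higher (median -0.21), but after quantile normalisation 3 were lower and 5 higher (median 0.06). The chaperones and cochaperones DNAJB4, CHORDC1 and DNAJA1 differed by -0.75, -0.59 and -0.47, and by -0.69, -0.29 and -0.22 after quantile normalisation.

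Lists of growth and metabolism had medians under 0 in deposited values and above 0 after quantile normalisation. Their shares lower in deposited values were under the 77.2% of genes at or above 9. Of 30 ribosome biogenesis genes, 15 were lower and 0 higher (median -0.14), while after quantile normalisation 0 were lower and 16 higher (median 0.12). NIP7, UTP15 and NOP58, which process or modify ribosomal RNA, differed by -0.46, -0.39 and -0.22 in deposited values and by -0.14, -0.11 and -0.07 after quantile normalisation, where their adjusted p was 0.0713, 0.151 and 0.0888; NOP58 turned to 0.21 when arrays were centred and scaled to one SD. Of 31 mitochondrial ribosome genes, 20 were lower and 2 higher (median -0.16), and 3 lower and 16 higher after quantile normalisation (median 0.12). MRPL32 and MRPL19 were lower on both scales, by 0.59 and 0.55 (differences -0.59 and -0.55, quantile -0.29 and -0.23), and MRPS14 was lower in deposited values and turned after quantile normalisation (-0.30 and 0.01). Aminoacyl-tRNA synthetases, which load amino acids on tRNA, had 9 of 17 lower and 1 higher (median -0.14), and 1 lower and 10 higher after quantile normalisation (median 0.17). TARS1 differed by -0.35 (quantile -0.04), NARS1 by -0.27 (quantile -0.10, but 0.14 with arrays centred and scaled to one SD), IARS1 by -0.31 (quantile -0.05, and 0.06 with that scaling) and CARS1 by -0.23 (quantile 0.08).

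Lists of sterol and fatty acid synthesis, of respiration and of protein degradation also had medians of opposite sign on the 2 scales, with many members not passing on either. Of 25 sterol and fatty acid genes, 7 were lower and 3 higher (median -0.12), and after quantile normalisation 0 were lower and 11 higher (median 0.17). MVK and MVD, mevalonate pathway kinase and decarboxylase, were higher on both scales, by 0.21 and 0.23 (quantile 0.43 and 0.19), as was the desaturase FADS2 (0.18, quantile 0.24). HSD17B7, a sterol reductase, went from -0.27 to 0.03 between the scales. In oxidative phosphorylation 22 of 36 were lower and 0 higher (median -0.15), and 3 lower and 14 higher after quantile normalisation (median 0.06). In the proteasome 15 of 27 were lower and 1 higher (median -0.19), and 1 lower and 8 higher after quantile normalisation (median 0.07). PSMA2 was lower on both scales (-0.45, quantile -0.24), PSMC6 was lower in deposited values (-0.37, quantile -0.09 with adjusted p = 0.0584), and PSMD8 turned (-0.27, quantile 0.05). Cytosolic ribosomal proteins mostly did not pass on either scale: of 31, 3 were higher and 1 lower (median 0.04), and 3 and 1 after quantile normalisation (median 0.00). RPS25 differed by -0.15 (quantile -0.15, but 0.33 with arrays centred and scaled to one SD), RPS16 by 0.15 (quantile 0.03) and RPL10A by 0.13 (quantile 0.08, and -0.02 as the mean of its probe sets).

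Cell cycle genes were lower in deposited values at shares under the 77.2% of genes at or above 9, and divided after quantile normalisation. Of 40 mitosis genes, 28 were lower and 1 higher (median -0.27), and 9 lower and 16 higher after quantile normalisation (median 0.04). TOP2A, the topoisomerase that untangles chromosomes, ran from 12.11 through 12.22 to 12.40 in unmarked and from 11.29 through 11.59 to 11.70 in R arrays (difference -0.73 ± 0.05 SE, adjusted p = 1.57e-07, quantile -0.43). The spindle motor KIF11 and the kinetochore proteins NUF2 and CENPK differed by -0.57, -0.56 and -0.57, and by -0.26, -0.25 and -0.27 after quantile normalisation. Of 36 DNA replication genes, 24 were lower and 1 higher (median -0.24), and 8 lower and 14 higher after quantile normalisation (median 0.05). PCNA, the sliding clamp of the replication fork, differed by -0.46 (quantile -0.20), the repressor E2F8 by -0.58 (quantile -0.27) and cyclin E2, CCNE2, by -0.52 (quantile -0.21). Among survival genes 12 of 22 were lower and 5 higher (median -0.18), and 3 lower and 6 higher after quantile normalisation (median 0.02). BCL2L11, the BH3-only protein BIM, differed by -0.54 (quantile -0.24) and the caspase inhibitor XIAP by -0.58 (quantile -0.27). In the p53 list 17 of 24 were lower and 1 higher (median -0.24), and 4 lower and 3 higher after quantile normalisation (median -0.04). Its median level was 8.66, and of genes from 7.5 to 9, 48.3% were lower, and 20.4% after quantile normalisation. TIGAR, which lowers glycolytic flux, differed by -0.50 (quantile -0.23).

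**Figure D4:**
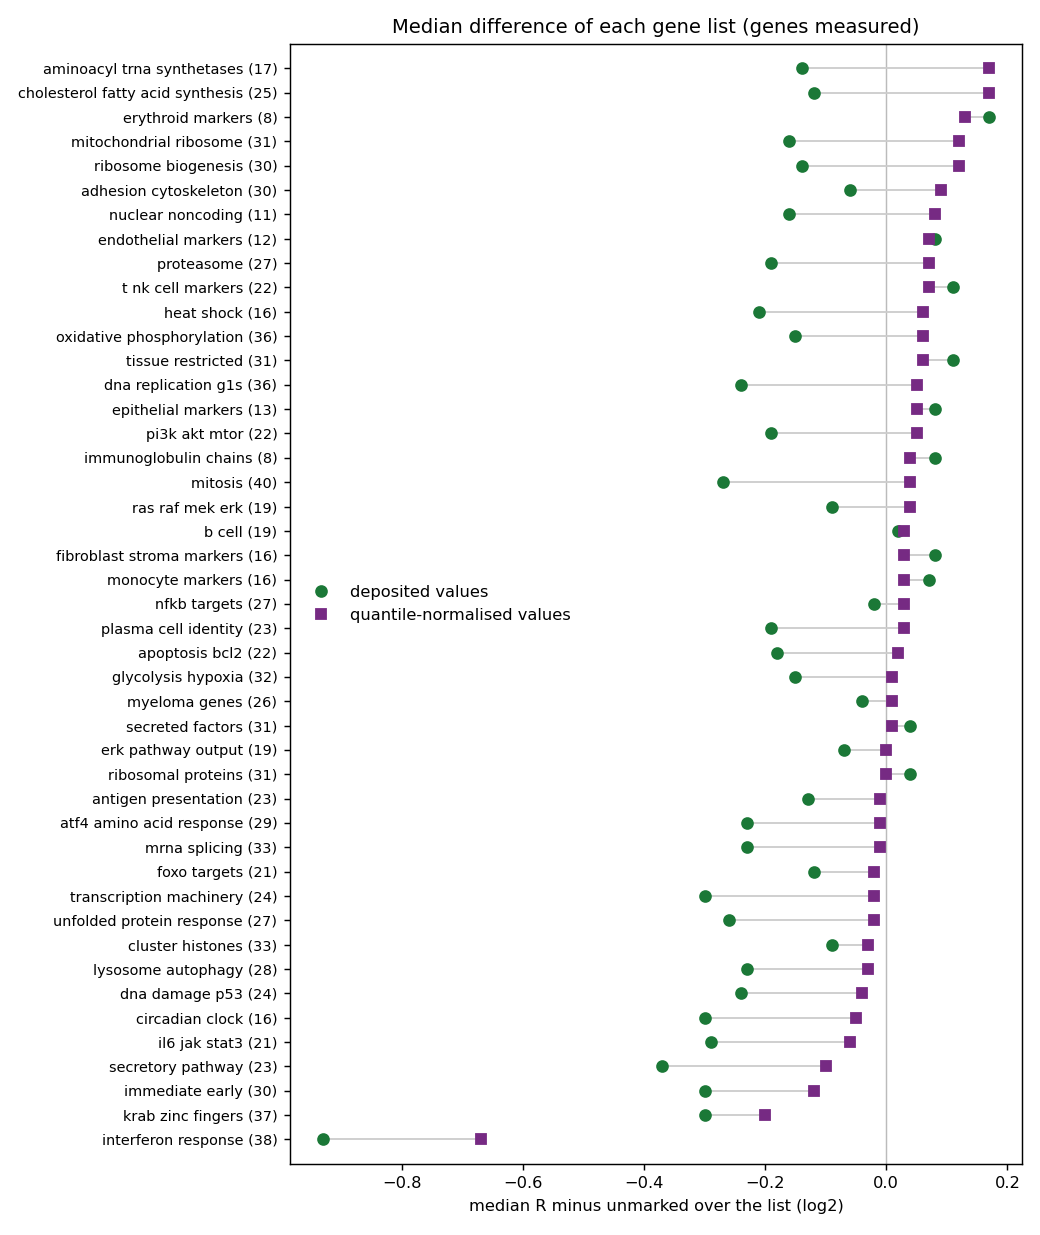
Median R minus unmarked difference (log2) of each of 45 gene lists, for deposited values (circles) and quantile-normalised values (squares), with the number of measured genes in brackets. The median is under 0 for 34 lists in deposited values and for 15 after quantile normalisation; the interferon list, at the foot, had a median of 0.08 without replicate 2.

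Genes that myeloma cells are not known for were higher in R arrays where they differed, at low levels. Of 31 tissue-restricted genes, such as the astrocyte filament GFAP, the retinal arrestin SAG and the serum carrier TTR, 18 were higher and 0 lower (median 0.11), and 8 were higher and 0 lower after quantile normalisation (median 0.06). GFAP ran from 6.67 through 6.70 to 6.75 in unmarked and from 6.87 through 7.02 to 7.08 in R arrays (difference 0.28), SAG differed by 0.23 and TTR by 0.25. For comparison, the 10706 genes under 7.5 had a median of 0.07, with 3929 higher (36.7%) and 442 lower (4.13%). After quantile normalisation 17.8% of these genes were higher and 6.30% lower, with a median of 0.03. Markers of other blood and tissue cells were also mostly higher where they differed. In deposited values the shares of the monocyte, fibroblast, endothelial and epithelial lists were near that of all genes under 7.5. Of 22 T and NK cell genes 12 were higher and 0 lower (quantile 8 and 1), of 16 monocyte genes 6 and 0 (quantile 4 and 0), of 8 erythroid genes 6 and 0 (quantile 6 and 1), of 12 endothelial genes 5 and 0 (quantile 4 and 0), of 13 epithelial genes 4 and 0 (quantile 3 and 0), and of 16 fibroblast genes 6 and 1 (quantile 2 and 0). The T cell surface proteins CD5 and CD4 differed by 0.31 and 0.24, and the monocyte receptor CD14, at 6.47 to 6.56 and 6.70 to 6.84, by 0.23. The mean level of the monocyte list was 6.57 to 6.62 on unmarked and 6.66 to 6.70 on R arrays, and that of the T and NK list 7.03 to 7.20 and 7.13 to 7.29, both around the array median. COL1A1, collagen of connective tissue, was higher by 0.33 (quantile 0.50), and PDGFRA, a growth factor receptor at 10.25 to 11.02 over the arrays, was the lower fibroblast gene (-0.42, quantile -0.10 with adjusted p = 0.251). The part of other cells in these values was not tested.

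Plasma cell genes were lower in deposited values, as bright genes were in general. Of 23, 13 were lower and 2 higher (median -0.19), and 2 lower and 5 higher after quantile normalisation (median 0.03). The elongation factor ELL2, which favours secreted antibody, and the translocon protein SSR4 differed by -0.46 and -0.40 (quantile -0.17 and -0.10, the latter with adjusted p = 0.151). PRDM1, the master regulator of plasma cell fate, differed by -0.42 (quantile -0.10 with adjusted p = 0.136) and JCHAIN by -0.28 (quantile -0.25). CD79A, a B cell receptor chain that plasma cells largely shut off, ran from 7.03 through 7.14 to 7.31 in unmarked and from 7.47 through 7.51 to 7.56 in R arrays (difference 0.37 ± 0.04 SE, adjusted p = 3.59e-06, quantile 0.37). Of 8 immunoglobulin chain genes, 4 were higher and 1 lower (median 0.08). IGHG1, IGHD and IGHM differed by 0.32, 0.28 and 0.18 at levels of 7.68 or less. IGLC1, the light chain gene at 7.17 to 10.42, was lower by 0.57 (difference -0.57, quantile -0.40 with adjusted p = 0.0862). Ig genes share sequence, and their probe sets can pick up one another's transcripts.

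Few probe sets passed the test of whether the R difference depended on treatment. With 2 arrays per treatment and set, that does not show that the difference was alike in the treatments. The interaction of mark and treatment passed at 9 of 54613 (0.0165%). The named genes among these, 1 probe set per gene, were H2BC11 and H3C2, histones of the replication-dependent clusters, and both were high in unmarked SB590885 arrays. H2BC11 read 9.28 and 8.99 on those arrays against 7.86 and 7.74 on the R arrays of SB590885, and lay between 6.66 and 7.02 on all DMSO and PD325901 arrays (interaction adjusted p = 0.00183). Its R difference was 0.04 in DMSO, -1.33 in SB590885 and -0.24 in PD325901. H3C2 read 8.34 and 8.56 against 7.61 and 7.30, with 7.08 to 7.21 elsewhere (interaction adjusted p = 0.0406). ELK4, an ETS factor and ERK substrate, and RANBP2, a nucleoporin, passed at probe sets that are not their brightest. The ELK4 probe set differed by -0.63 in DMSO, -1.72 in SB590885 and -0.47 in PD325901, and the RANBP2 probe set by -0.25, -1.30 and -0.09 (both interaction adjusted p = 0.00183).

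Each set also gives its own estimate of the treatment effects. SB590885 against DMSO called 3097 probe sets higher (5.67%) and 2636 lower (4.83%) in unmarked arrays, and 732 (1.34%) and 1029 (1.88%) in R arrays. Over all probe sets the SB590885 effect had an SD of 0.187 in unmarked and 0.133 in R arrays. PD325901 against DMSO called 179 higher (0.328%) and 259 lower (0.474%) in unmarked arrays, and 205 (0.375%) and 1619 (2.96%) in R arrays, with SDs of 0.111 and 0.135. The sets share no array. Over 54613 probe sets their SB590885 effects correlated at 0.66 and their PD325901 effects at 0.62, given as a description.

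Targets that ERK induces responded in both sets. Of 19 in the list, PD325901 lowered 7 in unmarked arrays (0.474% of all probe sets were lower) and 8 in R arrays (2.96%), and SB590885 lowered 7 (4.83%) and 6 (1.88%). DUSP6, the ERK phosphatase, fell with PD325901 in unmarked arrays (change -2.70, adjusted p = 2.90e-07) and in R arrays (-2.59, adjusted p = 4.76e-07). With SB590885 the changes were -1.18 (adjusted p = 0.000112) and -0.76 (adjusted p = 0.00729). ETV5, an ETS factor, changed by -1.89 and -1.76 with PD325901 and by -1.21 and -1.22 with SB590885. SPRED2 changed by -2.00 and -1.66 with PD325901, and with SB590885 by -0.37 in unmarked arrays (adjusted p = 0.00702), beside a value of -0.31 in R arrays (adjusted p = 0.0509). IER3, by contrast, rose by 0.50 with SB590885 in unmarked arrays (adjusted p = 0.0367) and had a change of -0.06 in R arrays (adjusted p = 0.911); the test of that difference was not passed (interaction adjusted p = 0.549). Interaction adjusted p-values of all 19 lay between 0.269 and 0.914, which does not show that the sets respond alike. The mark itself moved some of these genes. SPRED1 was lower by 0.50 in R arrays (difference -0.50, quantile -0.43) and IER3 by 0.50 (difference -0.50, quantile -0.36), and the ERK phosphatase DUSP5 by 0.53 (difference -0.53, adjusted p = 0.00240; quantile -0.32 with adjusted p = 0.0562). MYC, a transcription factor of growth, differed by -0.28 in deposited values and by 0.00 after quantile normalisation.

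**Figure D5:**
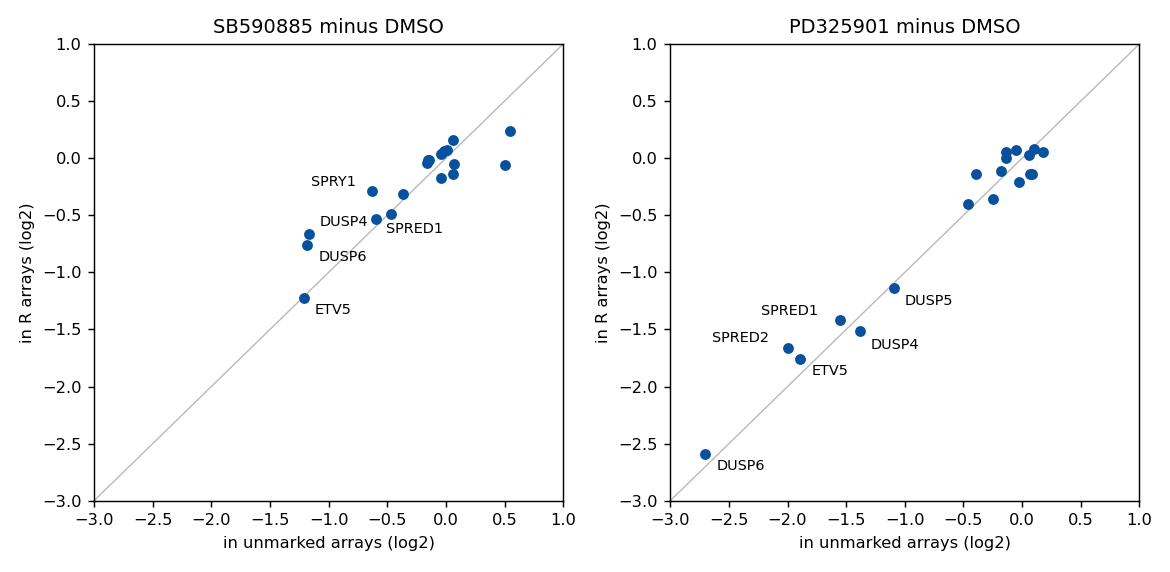
Change with SB590885 (left) and PD325901 (right) against DMSO in log2 units for 19 ERK target genes, in unmarked arrays (horizontal axis) and R arrays (vertical axis); each point is a gene, each value the difference of means of 2 arrays, and the line marks equal change. DUSP6 lies at -2.70 and -2.59 with PD325901, and at -1.18 and -0.76 with SB590885.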

How the data were processed

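The authors deposited RMA values made in R 3.0.1, per the submitters' processing notes: log2 expression values per probe set of 12 arrays. Whether they were normalised together is not stated in the labels. The number of arrays limits the precision. Of 54675 probe sets, 62 controls were read separately and 54613 were tested with limma 3.58.1 in R 4.3.3 (treatment plus R mark, empirical Bayes, Benjamini-Hochberg over all 54613, called under 0.05), a script tested on simulated data. The interaction was a moderated F over 6 group means. All adjusted p-values of genes come from these fits. The annotation table of the platform paired 41091 probe sets with 1 symbol, 1801 with several and 11721 with none; a gene was represented by its brightest probe set. Differences are R minus unmarked. Array-level values were permuted within treatment.

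Named genes were the 15 largest differences in each direction among called genes that separated the sets in all 3 treatments and whose higher mean was at or above 6.92, up to 4 called members with the smallest p per list, genes passing the interaction, and plasma cell markers. ELK4, RANBP2, DUSP5, DUSP6, ETV5, SPRED2 and the zinc-finger genes that were not lower are named outside that rule, after their values were seen. The 45 lists (1201 symbols, 1068 measured) and the members were chosen with earlier results of these data known. Alternatives were run for 120 genes the text names, a number narrowed down once values had been seen. Alternatives tried were other scalings, a level filter, other priors, replicate blocks, other summaries per gene and left-out arrays. No probe sequence was used. The value of 1 control is not reported here.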

Additional observations from a re-analysis of the deposited data

Results flagged for a closer look

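Of 262 sets of 6 arrays examined (131 genes or array-level values in R and in unmarked arrays, treatment effect removed), 8 had 1 array whose gap to its nearest neighbour, as a share of the whole range, was above Dixon's critical value; chance alone flags about 1 set in 20. In unmarked arrays these were RNA45SN5 (0.627, SB590885 replicate 1), SPRR4 (0.642, PD325901 replicate 2) and TOP2A (0.690, SB590885 replicate 2). In R arrays they were TMPRSS6 (0.651, DMSO replicate 3), CD5 (0.679, PD325901 replicate 4), SEC23B (0.666, PD325901 replicate 3), SAMD9 (0.685, SB590885 replicate 3) and GAPDH control probe sets, 3′ signal less 5′ signal (0.636, PD325901 replicate 4).

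For 4 named genes the difference between R and unmarked arrays depended on the treatment by the limma interaction test. The adjusted p was 0.00183 for RANBP2, H2BC11 and ELK4 and 0.0406 for H3C2, and in each the SB590885 arrays had the largest R difference.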

How the results depend on the processing

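The count of 25187 called probe sets was 8944, 11856 and 15789 within DMSO, SB590885 and PD325901 arrays alone, and 38 for differences of at least 1. With 1 probe set per gene it was 10989 (7630 separating the sets in all 3 treatments), with the mean of a gene's probe sets 11201 (7790) and with only _at probe sets 16224 (10671), all from fewer features tested. Leaving out arrays gave 18430 to 24076. The 9 probe sets passing the interaction became 4 with arrays centred and scaled to one SD, 5 at or above the median level, 33 with the replicate number as a random replicate block, and 4 to 43 with arrays left out. It was 43 without replicate 2, 24 without SB590885 replicate 1, 15 without SB590885 replicate 3, 5 without PD325901 replicate 2, and 4 without DMSO replicate 3 or DMSO replicate 4. The cause was not tested. Lists with a median under 0 numbered 34 in deposited values, 15 after quantile normalisation and 22 with arrays centred and scaled to one SD.

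With whole replicate numbers permuted no array-level difference could pass (smallest p 0.333): these were -0.11 for the SD, 0.06 for the median, 0.72 for the hybridisation controls, -0.34 for the poly-A controls, -0.24 for ACTB 3′ minus 5′ and 0.3 for 28S. Of 120 genes, 98 kept direction and call under quantile normalisation, 16 no longer passed, 1 newly passed and 5 reversed: PSMD8 (0.05), MYC (0.00), MRPS14 (0.01), CARS1 (0.08) and HSD17B7 (0.03). With arrays centred and scaled to one SD, 8 reversed: NARS1 (0.14), RPS25 (0.33), PSMD8 (0.03), MYC (0.07), MRPS14 (0.01), IARS1 (0.06), CARS1 (0.06) and NOP58 (0.21). H2BC11 reversed in DMSO alone (0.04) and RPL10A as the mean of its probe sets (-0.02). The naming of genes and the list counts on quantile-normalised values, and the shares by level, were added after seeing the data.

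The replicate numbers were not taken to pair the arrays, since not every correlation was over 0.1. Deviations of same-numbered arrays correlated across treatments at 0.18, 0.77 and 0.15 in unmarked and 0.04, 0.26 and 0.08 in R arrays, all positive, and those of the number before the R within a treatment at 0.01, -0.12 and 0.01. A random block on the replicate number gave 25641 calls. Its estimated correlation over all probe sets was -0.016, so that fit was close to the one without a block and adds little. A fixed block on the number before the R within a treatment gave 23627 calls. Neither block changed the call of any of the 120 genes, which does not exclude a shared replicate effect in some genes, such as the interferon genes.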

Other observations

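Ranking genes on quantile-normalised values by the same rule, a choice made after seeing the data, added 6 genes to the largest increases. ALKBH7, a mitochondrial protein of programmed necrosis, ran from 9.96 through 10.17 to 10.30 in unmarked and from 10.32 through 10.43 to 10.57 in R arrays, without overlap (difference 0.29, quantile 0.60). ST3GAL3, a sialyltransferase, and PACS2, a sorting protein, differed by 0.46 and 0.35 (quantile 0.66 and 0.62). MPDU1, INHBC and FGD2 differed by 0.32, 0.37 and 0.37 (quantile 0.60, 0.64 and 0.63), with overlapping sets. The 5 added decreases were SFXN3, a mitochondrial serine carrier (difference -0.90, quantile -0.71), TRIM5, an antiviral factor (-0.86, quantile -0.74), ZNF124 (-0.86, quantile -0.68), DNAJB4 (-0.75, quantile -0.69) and BLZF1, a Golgi protein (-0.71, quantile -0.67). None of these 5, picked for separating the sets within each treatment on the quantile scale, overlapped. Without replicate 2 the difference was -0.32 for TRIM5 and -0.43 for BLZF1, 2 genes that were highest on replicate 2 of DMSO and PD325901. The rule that picked them put replicate 1 above both R arrays in each treatment on the quantile scale, so this direction adds no support.

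The lysosome and glycolysis lists had median levels of 9.69 and 9.66. Of genes at or above 9, 77.2% were lower, and 21.9% after quantile normalisation, and both lists lay under these shares. The clock and FOXO lists had median levels of 8.69 and 8.50. Of genes from 7.5 to 9, 48.3% were lower, and 20.4% after quantile normalisation. Lysosome and autophagy genes were lower for 19 of 28 and higher for 2 (median -0.23), and 6 and 7 after quantile normalisation (median -0.03). NPC2, which carries cholesterol out of lysosomes, ran from 9.90 to 10.33 in unmarked and from 9.40 to 9.69 in R arrays (difference -0.61, quantile -0.32). The autophagy conjugation protein ATG12 differed by -0.61 (quantile -0.30). Of 32 glycolysis and hypoxia genes 17 were lower and 4 higher (median -0.15), and 3 and 7 after quantile normalisation (median 0.01). VEGFA, the angiogenic growth factor, ran from 9.67 to 9.83 and from 8.71 to 9.20 (difference -0.70, quantile -0.44). Of 16 clock genes 10 were lower and 2 higher (median -0.30), and 1 and 2 after quantile normalisation (median -0.05). Of 21 FOXO targets 9 were lower and 3 higher (median -0.12), and 6 and 4 after quantile normalisation (median -0.02). The cell cycle inhibitor CDKN1B differed by -0.67 (quantile -0.36).

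In the other lists counts are given as lower and higher, first in deposited values (31.9% and 22.9% of all genes) and then after quantile normalisation (13.2% and 23.4%). Deposited shares depended on level: 77.2% and 1.32% at or above 9, 48.3% and 13.4% from 7.5 to 9, and 4.13% and 36.7% under 7.5. Median levels were 9.71 for antigen presentation and 9.28 for adhesion, both with shares lower well under 77.2%. They were 8.75 for the PI3K, AKT and mTOR list, 8.59 for the Ras to ERK list and under 7.5 for the others. Of 22 PI3K, AKT and mTOR genes the counts were 15 and 3, then 2 and 6. Of 19 genes of the Ras to ERK pathway they were 8 and 2, then 3 and 6. Of 33 cluster histones they were 12 and 3, then 8 and 2, and of 23 antigen presentation genes 7 and 3, then 0 and 2. Of 30 adhesion genes they were 11 and 5, then 5 and 11, and of 26 myeloma genes 10 and 7, then 2 and 6. Of 19 B cell genes they were 4 and 5, then 4 and 5, and of 31 secreted factors 2 and 6, then 1 and 4.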
